A study of Mus musculus with 6 samples.

Results

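The 80 genes of the cytosolic ribosome described here were taken from 20665 genes by name: protein-coding genes called Rpsa, Rplp0 to Rplp2, or Rps or Rpl with a number and, at most, a short paralog suffix. Rps27a was left out of the set. The rule found 84 rows, of which 4 repeated a gene identifier, and left 30 genes of the small ribosomal subunit and 50 of the large one. It uses names only, and no measured value. All 80 genes reached 10 normalized counts in at least 3 libraries, the level at which a gene was tested, as did 16141 genes in all.

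A ribosome is built from a small subunit, which reads the messenger RNA, and a large subunit, which joins the amino acids. Each subunit is a core of ribosomal RNA clad in proteins, nearly all of them present once per ribosome, so cells make these proteins in step with each other. Their messenger RNAs are short, very abundant and stable, and they begin with a run of pyrimidines (C or T) called the terminal oligopyrimidine motif, or TOP, through which the kinase complex mTORC1 and the protein LARP1 control their translation. Fibroblasts that grow and lay down collagen make many ribosomes. Ribosomal protein genes have also left many processed pseudogenes in mammalian genomes, which are intronless copies of the messenger RNA pasted back into a chromosome and which can differ from the parent gene by only a few bases.

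The study asked how an Er:YAG laser, an infrared dental laser whose light is taken up by water, alters the genes of gum fibroblasts soon after exposure. Total RNA was sequenced from primary gingival fibroblasts of wild-type C57BL/6 mice, isolated from the maxilla and grown in 35-mm dishes. In 3 libraries the cells had been irradiated at 3.9 J/cm2 from 25 cm, and in 3 they had not. All cells were collected at 3 h, and no other genotype, agent or time was used in either group. The labels do not say whether a group's libraries are different animals or cultures. The p-values therefore speak only of the spread among these 6 libraries, which may be technical. In such bulk samples, fewer cells and less RNA per cell cannot be told apart.

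The libraries held 45178137 to 59904715 reads assigned to genes. The fibroblast markers fitted the label: 10 of 10 were present, with a summed level of 1802898 to 2953823 normalized counts in non-irradiated and 1985988 to 2786038 in irradiated libraries. Of other cell types, 2 of 6 epithelial markers were listed, summing to 6.77 to 18.3 and 5.77 to 19.6, without Krt5, Krt14, Krt15 or Trp63. Of immune markers 3 of 5 summed to 106 to 236 and 74.1 to 203, and of endothelial markers 4 of 4 summed to 107 to 235 and 127 to 222. Of skeletal muscle markers only Acta1 was listed, at 1944 to 6717 and 1898 to 7051, without Myod1, Myog or Ckm. Of germ cell markers only Dazl was listed, at 0 to 7.73 and 0 to 6.85. Non-irradiated replicate 2 stood apart in the ribosomal protein genes, so the share, the medians of the set and of each list, and the fold changes of the genes lowest in irradiated cells are also given without it. Across genes, libraries with the same replicate number deviated together, and they are called pairs 1, 2 and 3. The 80 ribosomal protein genes did so only in replicate 3. There, their median log2 departure from the group mean was -0.14 in the non-irradiated and -0.13 in the irradiated library. It was -0.11 and 0.13 in replicate 1, and 0.24 and -0.0047 in replicate 2.

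Of the 80 genes, 61 were found in a RefSeq table of gene starts (GRCm38.p6). The stretches that follow run from 20 bases before the annotated start to 10 bases from it on, and capitals mark the part of the longest C or T run near the start that lies inside the stretch. They show the starts of 3 genes with a long run (Rpl35, Rps18 and Rps6), of genes whose counts are discussed with their copies (Rpl7a and Rps27), of genes with large differences (Rpl38 and Rps28), and of a paralog (Rpl7l1). They lie at chr2:39005122-39005151 (minus strand), chr17:33955656-33955685 (minus), chr4:86857358-86857387 (minus), chr2:26910787-26910816 (plus), chr3:90213639-90213668 (minus), chr11:114668560-114668589 (plus), chr17:33824553-33824582 (minus) and chr17:46782647-46782676 (minus), in the order printed.
Rpl35: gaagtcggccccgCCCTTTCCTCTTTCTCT
Rps18: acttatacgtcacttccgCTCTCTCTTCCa
Rps6: gggttaagcggaagtcgggCCTCTTTTTCg
Rpl7a: ccacaaTTCCCTCTTCTTTCTTTCTCCagc
Rps27: acaggatttccgctttcgCTCCTTTCCggc
Rpl38: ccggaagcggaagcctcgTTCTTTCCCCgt
Rps28: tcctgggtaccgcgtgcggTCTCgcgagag
Rpl7l1: gcccggtgaggCTgcgcaagcgcagtagct

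A run of at least 8 C or T touching the 10 bases on either side of the start was present in 27 of the 61 genes, 44.3%, and in 13.4% of the 26964 other genes of the table. The longest run had a median of 7 bases in ribosomal protein genes and 4 in the others. Such a run need not begin at the annotated start, and in Rpl4, Rpl13, Rpl31, Rpl34, Rps15a, Rps25 and Rps27l it ends before it. The first base was C in 20 of the 61 genes, 32.8%, and in 16.1% of the others. Groups by run length are therefore not groups with and without a TOP motif. The letters CGGAAG, searched on both strands of the 300 bases around the start, were present in 42 of the 61 genes, 68.9%, and in 17.0% of the other genes, and a start can hold both features. The median log2 fold change was -0.10 for the 27 genes with a run of 8 or more and -0.09 for the 34 with a shorter one. With and without CGGAAG it was -0.10 in the 42 and -0.10 in the 19 genes.

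Ribosomal protein genes took 4.02% to 5.90% of all normalized counts. The share was 4.40%, 5.90% and 4.40% in the non-irradiated replicates 1, 2 and 3, and 4.88%, 4.57% and 4.02% in the irradiated ones. All libraries but non-irradiated replicate 2 therefore lay within 4.02% to 4.88%, and the groups overlapped. Counting error was small beside these gaps, with a 95% Wilson interval of 5.89% to 5.91% for the highest library and 4.01% to 4.02% for the lowest; intervals cover counting error only. The means were 4.90% ± 0.867 (SD, n = 3) and 4.49% ± 0.439, a difference of -0.409 percentage points that was smaller than the SD of 0.909 between the pair differences. Without non-irradiated replicate 2 the difference was 0.0911 percentage points. Within pairs the share went up in pair 1 and down in pairs 2 and 3, as the plot of shares shows.

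**Figure D1:**
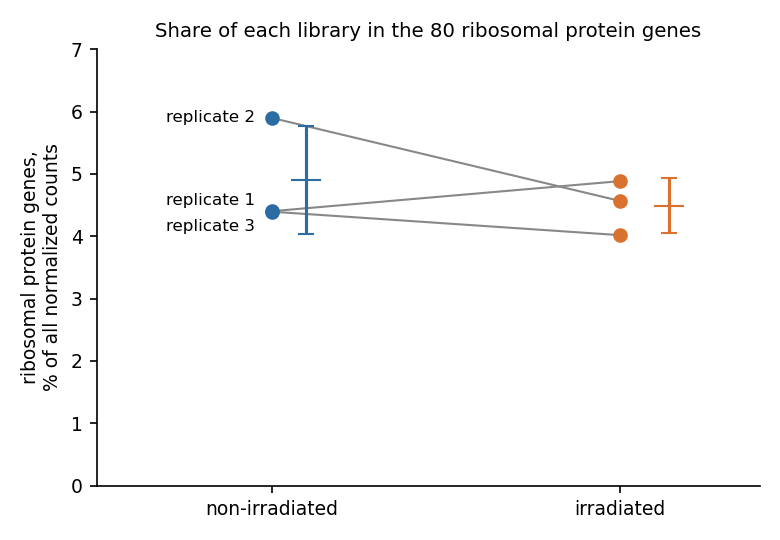
Share of all normalized counts in the 80 ribosomal protein genes (y axis, percent, from 0) for each library (points, lines join same-numbered libraries), with the mean and SD of each group of 3 beside the points. Non-irradiated replicate 2, at 5.90%, lies above the other 5 libraries, which range from 4.02% to 4.88%.

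The genes of both subunits moved together from library to library, and the direction differed between the pairs. The median log2 ratio of irradiated to non-irradiated was 0.15 in pair 1, -0.35 in pair 2 and -0.09 in pair 3. The ratio was below 0 in 2, 77 and 75 of the 80 genes, where 52.6%, 47.7% and 47% of all tested genes were below 0. Small and large subunit genes had the same course, with medians of 0.14, -0.37 and -0.07 for the small and 0.15, -0.35 and -0.10 for the large subunit. In 74 of the 80 genes non-irradiated replicate 2 was the highest of the 6 libraries, against 23.1% of all genes, and in 67 irradiated replicate 3 was the lowest, against 14.7%. Relative to the other non-irradiated libraries, replicate 2 was higher by a median of 0.37 (log2).

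**Figure D2:**
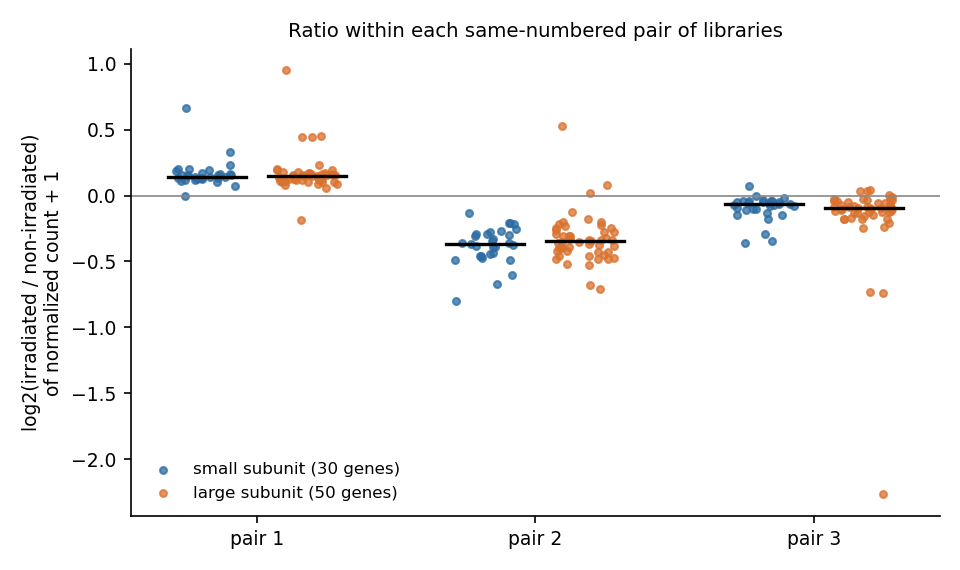
Log2 ratio of irradiated to non-irradiated normalized counts (+ 1) in each same-numbered pair (x axis), 1 point per gene, blue for the 30 small subunit and orange for the 50 large subunit genes, with black bars at the medians. The medians of both subunits are above 0 in pair 1 and below 0 in pairs 2 and 3; the lowest point is Rpl39l, at -2.27 in pair 3.

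**Figure D3:**
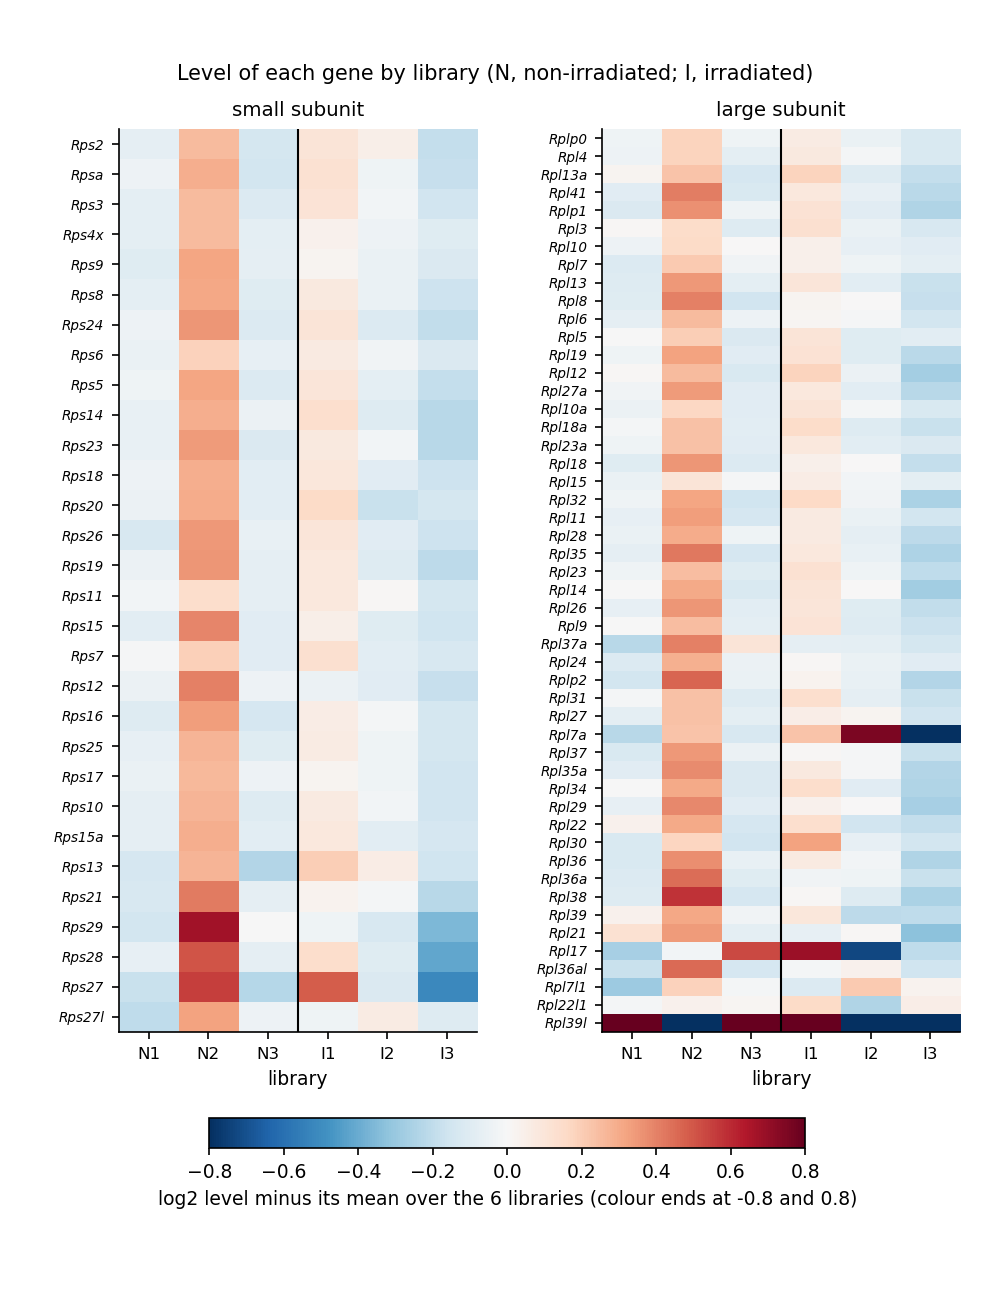
Log2 level of each gene minus its own mean over the 6 libraries (colour, red higher and blue lower), with genes in rows from the highest to the lowest mean level in each subunit, and libraries in columns. The column of non-irradiated replicate 2 is red in both subunits; Rpl7a, Rpl17, Rps27 and Rpl39l break the common pattern.

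No ribosomal protein gene passed the test of irradiated against non-irradiated cells. In limma, a linear model on log2(normalized count + 1) adjusted over all tested genes by Benjamini-Hochberg, 0 of 80 genes passed an adjusted p of 0.05, as did 0% of all genes. At an unadjusted p under 0.05 there were 0 of 80, against 0.818% of all genes, and the smallest unadjusted p in limma was 0.117, for Rpl21. With the replicate number as a block, limma called 0 of 80 (0.0186% of all genes), with 2 at an unadjusted p under 0.05 (3.26% of all genes), Rpl21 and Rps29, both lower. Without both libraries of replicate 1 that fit called 2 of 80, Rps29 and Rpl17, against 0.223% of all genes. On reads recovered from the values, edgeR called 0 of 80 without the block (0% of all genes) and 0 of 80 with it (0.0124%), with 0 (0.694% of all genes) and 2 (3%) at an unadjusted p under 0.05. DESeq2 called 0 of 80 without the block (0.031% of all genes) and with it (0.142%), with 0 (0.737%) and 2 (2.61%) unadjusted. The authors' deposited table lists 0 of the 80 genes at an adjusted p under 0.05 (0.159% of its genes with an adjusted p) and 2 at an unadjusted p under 0.05 (2.3%), Rpl21 and Rps12.

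The log2 fold change was below 0 in 76 of the 80 genes, where 48.5% of all genes were below 0, with a median of -0.10 in the 30 small subunit and -0.10 in the 50 large subunit genes against 0.01 over all genes. Without non-irradiated replicate 2 that tilt turned the other way. That library was the highest in 74 of the 80 genes, so leaving it out had to raise their fold changes. In the fit without it, 20 of 80 genes and 8117 of 16141 tested genes were below 0, and the median of the 80 was 0.02. This fit keeps irradiated replicate 2 without its same-numbered library. Pair 3, which does not use the left-out library, had 75 of 80 genes below 0. A test of the replicate number, with irradiation held, also called 0 of 80 genes (limma with the block, adjusted p under 0.05), where 13.4% of all tested genes passed, and the smallest adjusted p of a ribosomal protein gene was 0.0673, for Rpl7l1. DESeq2 with the block called 2 of 80 for the replicate number, Rpl21 and Rpl7l1, against 18.9% of the genes with an adjusted p.

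Among small subunit genes, Rps2, a protein at the channel where messenger RNA enters, had the highest level per kilobase of transcript, 101742 normalized counts. Its normalized counts were 96252, 120277 and 91674 without irradiation and 108526, 104208 and 88294 with it. The groups overlapped, and the log2 fold change was -0.03 ± 0.15 (SE). Rpsa, whose protein sits on the back of the small subunit and is also known as a laminin receptor, had 76261, 96054 and 70813 against 85234, 76517 and 69089 normalized counts. Its log2 fold change was -0.07 ± 0.15, and that of Rps3, a protein of the messenger RNA entry site with a further role in DNA repair, was -0.04 ± 0.14. In each of these genes only non-irradiated replicate 2 lay above every irradiated library.

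Rps6, whose protein is phosphorylated by S6 kinases downstream of mTORC1, had 36083, 42643 and 35794 normalized counts in non-irradiated and 39456, 36790 and 34597 in irradiated libraries. The groups overlapped, with a log2 fold change of -0.04 ± 0.12 (SE). Rps19 and Rps14, both needed to mature the RNA of the small subunit and known from human bone marrow failure when 1 copy is lost or mutated, had log2 fold changes of -0.15 ± 0.15 and -0.12 ± 0.15. Rps29 and Rps28, which encode small proteins near the head of the subunit, had some of the lowest fold changes. Rps29 had 10725, 18894 and 11850 normalized counts in non-irradiated and 11556, 10828 and 9238 in irradiated libraries, with a log2 fold change of -0.35 ± 0.22. Rps28 had 10863, 16103 and 10815 against 12496, 10606 and 8505, with a log2 fold change of -0.25 ± 0.20. In both, non-irradiated replicate 2 was the highest library by far. Without it the groups overlapped, and the log2 fold changes were -0.10 for Rps29, -0.059 for Rps28 and -0.017 for Rps19.

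Rps12, a protein of the subunit's beak, was the 1 gene of 80 whose groups did not overlap, while 2.65% of all genes did not overlap in that direction and 2.08% in the other, where 0 of 80 did. It had 23441, 31937 and 23540 normalized counts in non-irradiated and 23406, 22707 and 21275 in irradiated libraries, with a log2 fold change of -0.21 ± 0.14 (SE). The highest irradiated library lay only just under the lowest non-irradiated one, and without non-irradiated replicate 2 the log2 fold change was -0.066. Rps12 and Rpl21 were lower in 3 of 3 pairs and Rpl7l1 was higher in 3 of 3, against 11% and 11.8% of all genes. With their near-identical copies added, 0 of 80 genes were lower in 3 of 3 pairs and 0 had groups that did not overlap: the sum for Rps12 and its 15 copies was 33736, 46834 and 33229 against 36318, 33008 and 30209. Rps13 was the 1 small subunit gene with a log2 fold change above 0, at 0.06 ± 0.16, and with copies added it was -0.05.

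The stalk of the large subunit, which recruits the elongation factors, is made of Rplp0, the anchor, and of Rplp1 and Rplp2, its acidic partners. Rplp0 had 95421, 110840 and 95759 normalized counts in non-irradiated and 102414, 94384 and 89944 in irradiated libraries. Rplp1 had 51572, 72103 and 54623 against 60465, 52427 and 47361. Rplp2 had 17981, 27554 and 19208 against 20338, 19099 and 16978. All 3 were highest in non-irradiated replicate 2 and lowest in irradiated replicate 3, with log2 fold changes of -0.07 ± 0.12, -0.15 ± 0.16 and -0.18 ± 0.17 (SE). Per kilobase of transcript the level of Rplp1 was 113077 normalized counts, of Rplp0 72258 and of Rplp2 47965.

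Rpl5 and Rpl11 bind the smallest ribosomal RNA of the large subunit and, outside the ribosome, can bind the p53 regulator Mdm2. Rpl5 had 40910, 46836 and 37734 normalized counts in non-irradiated and 44006, 38276 and 38695 in irradiated libraries. Rpl11 had 24943, 32882 and 23765 against 27474, 25187 and 23592. Both overlapped between the groups, with log2 fold changes of -0.05 ± 0.12 and -0.09 ± 0.15 (SE). Of other large subunit genes with high counts, Rpl4, a protein that lines the exit tunnel, had a log2 fold change of -0.04 ± 0.12 and Rpl13a, a surface protein also known in human cells for silencing inflammatory messages, -0.08 ± 0.15. Per kilobase of transcript the highest level of all 80 genes was that of Rpl41, which encodes the shortest ribosomal protein, at 132159 normalized counts, and the median was 34168.

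Further large subunit genes lay at the ends of the range. Rpl38, a protein known in mouse for its part in translating Hox messages and in skeletal patterning, had 9803, 15683 and 9584 normalized counts in non-irradiated and 10592, 9796 and 8813 in irradiated libraries, with a log2 fold change of -0.23 ± 0.20 (SE) that was 0.0020 without non-irradiated replicate 2. Rpl10a had the highest fold change among genes below 0, at -0.02 ± 0.12. The 4 genes above 0 were Rpl7l1, Rpl7a, Rpl30 and Rps13, and with copies added 79 of 80 genes were below 0, leaving Rpl7l1. Rpl30, which binds its own transcript in yeast, had 10731, 13180 and 10486 normalized counts against 14576, 11140 and 10529, and its log2 fold change of 0.07 ± 0.16 became -0.04 with its 12 copies added.

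In 5 cases the set holds a parent gene and a paralog, paired by name, and whether their proteins replace each other was not tested. Rpl39l, a paralog of the tunnel protein gene Rpl39 known from male germ cells in mouse, had the lowest level per kilobase of transcript of the 80 genes, 49.7 normalized counts. It had 39.8, 10.1 and 40.9 normalized counts in non-irradiated and 54.7, 10.8 and 7.70 in irradiated libraries. Its libraries of each group lay both high and low, and its log2 fold change of -0.58 ± 0.87 (SE) was the lowest of the 80 with the widest error, and -1.21 without non-irradiated replicate 2. It made up 0.289% ± 0.181 (SD, n = 3) of the pair with Rpl39 in non-irradiated and 0.236% ± 0.230 in irradiated libraries. The parent Rpl39 had 10455, 12637 and 9999 against 10867, 8807 and 8870, with a log2 fold change of -0.21 ± 0.14 (SE), or -0.11 without non-irradiated replicate 2.

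The other 4 paralogs took larger shares of the counts of their pairs, which are not corrected for length. Rpl7l1, whose relative in yeast acts in large subunit assembly, was 11.2% ± 0.689 (SD, n = 3) of the pair with Rpl7 in non-irradiated and 12.2% ± 1.46 in irradiated libraries. It had 4721, 6576 and 5711 against 5352, 6668 and 5887 normalized counts, and its log2 fold change of 0.08 ± 0.15 (SE) was the highest of the set, while Rpl7 had -0.05 ± 0.12. Rpl22l1, a paralog that the RNA-binding protein Rpl22 represses in mouse, was 23.5% ± 2.62 and 24.9% ± 2.22 of its pair, with log2 fold changes of -0.03 ± 0.12 for Rpl22l1 and -0.14 ± 0.15 for Rpl22. Rpl36al, an autosomal copy of the X-linked Rpl36a, was 36.4% ± 0.647 and 37.4% ± 0.497 of its pair, with log2 fold changes of -0.10 ± 0.18 and -0.16 ± 0.16. Rps27l, a p53 target that differs from Rps27 by a few residues, was 49.0% ± 3.59 and 49.8% ± 8.33 of its pair. All pair shares and ratios use the genes without their near-identical copies. Rps27 with its 2 copies had means of 13223 and 11658 normalized counts, so the share of Rps27l would be lower with them. In all 5 pairs the shares of the groups overlapped. Between same-numbered libraries, the shares of Rpl7l1, Rpl22l1 and Rpl36al were higher in the irradiated library every time. For Rpl36al they were 35.8%, 37.1% and 36.3% in non-irradiated and 37.0%, 38.0% and 37.2% in irradiated libraries. The shares of Rpl39l and Rps27l went both ways, and no share was tested. Per kilobase of transcript the parent's level was 8.50 times the paralog's for Rpl7, 3.68 times for Rpl22, 1.86 times for Rpl36a and 1.53 times for Rps27.

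A few genes broke the common course, among them Rpl7a, Rpl17 and Rps27, which have near-perfect copies in the genome. Copies were genes of the table whose transcript matched at least 80% of a member's coding sequence at 95% identity or more, and 448 were found for 74 of the 80 genes. Of the 448, 11 were labelled protein-coding genes, and their counts are part of the sums. In 12 genes the copies held over 20% of the summed counts, up to 79.1% for Rpl21 with 38 copies and 74.1% for Rpl17 with 13. Rps27 and Rps27rt, an intronless copy on another chromosome, had 0 mismatches over 252 coding bases. Rpl7a and Rpl7a-ps11 had 2 over 798, and Rpl21 and Rpl21-ps15 had 3 over 480. The stretches that follow show how alike they are, from the transcripts of GENCODE M21 (GRCm38), with capitals at the mismatches: bases 156 to 215 of the coding sequence of Rpl7a (chromosome 2) and its copy (X), bases 1 to 60 of Rps27 (3) and its copy (9), and bases 306 to 365 of Rpl21 (5) and its copy (X).
Rpl7a: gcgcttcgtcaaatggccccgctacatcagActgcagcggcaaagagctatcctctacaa
Rpl7a-ps11: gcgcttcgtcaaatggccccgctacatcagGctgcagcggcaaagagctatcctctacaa
Rps27: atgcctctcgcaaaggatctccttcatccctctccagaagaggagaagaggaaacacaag
Rps27rt: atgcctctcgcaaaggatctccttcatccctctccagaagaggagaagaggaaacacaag
Rpl21: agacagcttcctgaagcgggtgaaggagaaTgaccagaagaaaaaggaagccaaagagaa
Rpl21-ps15: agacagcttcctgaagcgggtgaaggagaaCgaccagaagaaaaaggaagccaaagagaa

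Rpl7a, a large subunit protein, had 13931, 19030 and 14877 normalized counts in non-irradiated and 19001, 27425 and 8933 in irradiated libraries. The irradiated libraries lay both above and below the others. Its copy Rpl7a-ps11 went the other way, with 9522, 12520 and 9012 against 8980, 5776 and 10603. Summed with its 24 copies, Rpl7a had 39613, 52868 and 40301 against 42117, 43174 and 37362, and its SD over the 6 libraries fell by 0.37 on the log2 scale, to 0.17, with a log2 fold change of -0.10 in place of 0.08. The copies Rpl7a-ps11 and Gm8226, which match Rpl7a equally well, had mean levels of 9402 and 9361, and whether the same reads were counted for both was not tested.

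Rpl17, a protein that lines the exit tunnel, had an SD of 0.53 (log2) over the libraries alone and 0.14 with its 13 copies. Its normalized counts ranged between libraries by far more than those of most genes, yet the sum had 27750, 31239 and 25494 in non-irradiated and 30093, 24939 and 24796 in irradiated libraries. Rps27, a zinc finger protein of the small subunit, had 7461, 12415 and 7222 against 11838, 7809 and 5913 alone. With Rps27rt and the other copy it had 12054, 15809 and 11805 against 13301, 11170 and 10504, with an SD of 0.21 in place of 0.43. Rpl21, a large subunit protein, had 7671, 8939 and 6675 against 6732, 7099 and 5628 alone. Its log2 fold change alone was -0.26 in the authors' deposited table, and in limma it was -0.15 without non-irradiated replicate 2. With its copies Rpl21 had 34504, 40139 and 31985 against 36717, 32130 and 29287, so that pair 1 was below 0 alone (-0.19) and above 0 in the sum (0.09). All 4 sums were highest in non-irradiated replicate 2, as the plot of genes with their copies shows.

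With copies added throughout, the log2 ratio was below 0 in 0, 78 and 78 of the 80 genes in pairs 1, 2 and 3, against 2, 77 and 75 without. Non-irradiated replicate 2 was then the highest library in 77 of 80 genes, and the exceptions were the paralogs Rpl7l1, Rpl22l1 and Rpl39l. Limma still called 0 of 80 genes, as it did 0% of all genes, with 0 of 80 at an unadjusted p under 0.05 against 0.818% of all genes. The SD over libraries was smaller with copies in 35 of 74 genes, so the change was large in the genes named and small or opposite in others. How the authors' counting placed reads that match several copies is not given in the sources used here, and its part in these values was not tested.

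**Figure D4:**
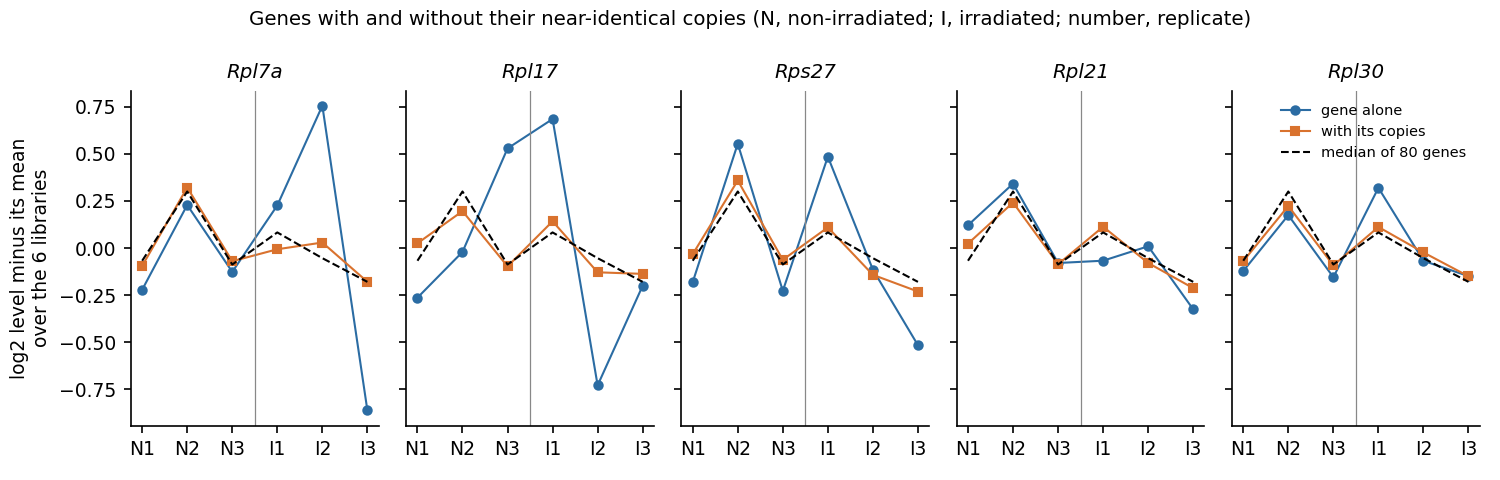
Log2 level minus its mean over the 6 libraries (y axis) for 5 genes alone (blue circles) and summed with their near-identical copies (orange squares), beside the median of the 80 genes (dashed), by library (x axis; N non-irradiated, I irradiated). The sums of Rpl7a, Rpl17, Rps27, Rpl21 and Rpl30 follow the dashed line, with SDs of 0.14 to 0.21, where Rpl7a and Rpl17 alone have 0.54 and 0.53.

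Other short messenger RNAs had median ratios on the same side of 0 as the ribosomal protein genes in each pair. Transcript lengths, taken from GENCODE M21 as the shortest best-ranked transcript of a gene, had a median of 680.5 bases in the 80 genes. In protein-coding genes outside the set whose mean reached 1000 normalized counts, leaving out other ribosomal proteins and the copies, the 34 genes under 500 bases had median log2 ratios of 0.12, -0.36 and -0.10 in pairs 1, 2 and 3. The 18 ribosomal protein genes of that length had 0.16, -0.46 and -0.12. The medians of the other genes then moved past 0 as length grew, to -0.10, 0.28 and 0.06 in the 1490 genes of 5000 bases or more. From 500 to 700 bases the ribosomal protein genes had 0.14, -0.35 and -0.08 (23 genes) beside 0.12, -0.28 and -0.04 in 105 others, and from 1000 to 1500 bases 0.15, -0.29 and -0.09 (12 genes) beside 0.07, -0.17 and -0.01 in 550 others.

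**Figure D5:**
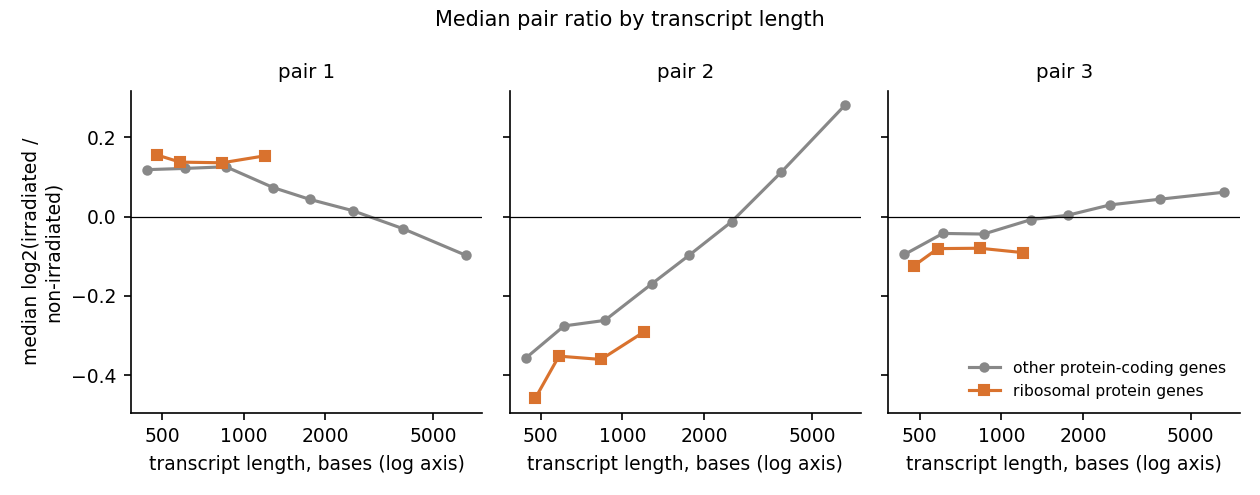
Median log2 ratio of irradiated to non-irradiated in each pair (y axis) against the median transcript length of the genes in a length range (x axis, bases, log axis), for ribosomal protein genes (orange, ranges with at least 12 genes) and other protein-coding genes of mean at least 1000 (grey). In all 3 pairs the shortest genes of both kinds lie on the same side of 0, and the genes of 5000 bases or more lie on the opposite side.

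Within the set, the pair 2 ratio went with length at a Spearman rho of 0.45 and a Pearson r of 0.34 over 80 genes that share the same libraries, given as a description. The annotated length of Rps20, 3706 bases, was the longest of the set, and its pair 2 ratio of -0.48 was like that of the short genes. Its coding sequence has 357 bases, and whether the cells made the annotated long transcript was not tested. In the other protein-coding genes the median ratio changed with length in every pair. In the set the pair 1 median was 0.16 under 500 bases and 0.15 from 1000 to 1500 bases. In the other genes it was 0.12 and 0.07 in these ranges, and 0.13 from 700 to 1000 bases. It reached -0.10 at 5000 bases or more, where the set has no gene. The part of length in the course of the ribosomal protein genes was not tested.

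Genes that work with the ribosome were grouped in lists. Of ribosomal protein genes outside the name rule, the log2 fold change was -0.11 for Fau, -0.07 for Rps3a1 and -0.05 for the scaffold protein Rack1. Rps27a, a fusion of ubiquitin and a small subunit protein, had 18512, 15445 and 13988 against 10109, 9284 and 7915 normalized counts. In limma with the replicate block the difference was -0.81 ± 0.076 (SE) on the log2 scale, with an adjusted p of 0.0227, and without the block the SE was 0.14 and the adjusted p 0.9998. The authors' deposited DESeq2 results list it at -0.81, with an adjusted p of 2.98e-16. Copies were not searched for these genes outside the name rule, so their values are for each gene alone. Without non-irradiated replicate 2, Rps27a had -0.83, Fau 0.029, Rps3a1 0.025 and Rack1 0.044. Mitochondrial ribosomal protein genes, which build the separate ribosome of mitochondria, had pair medians of 0.10, -0.23 and -0.08 over 78 genes and a median log2 fold change of -0.04, with 57 below 0. Without non-irradiated replicate 2 their median was 0.09, with 17 below 0. Elongation factors and other genes with TOP messages had 0.07, -0.20 and 0.00 over 20 genes, with 16 log2 fold changes below 0, and 7 without that library, where the median went from -0.06 to 0.02. In limma without the block 0 genes of either list passed, and neither did these 4 genes outside the name rule.

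Lists of genes that build or start the ribosome, or control its messages, had medians between -0.03 and 0.06 with all libraries, and between 0.01 and 0.15 without non-irradiated replicate 2. The 23 translation initiation factors had a median log2 fold change of 0.02 with 8 below 0, the 32 ribosome assembly factors 0.02 with 13 below 0, and the 19 tested genes of RNA polymerase I, which makes ribosomal RNA, -0.03 with 11 below 0. The 16 genes of TOP message control by mTORC1 and LARP1 had a median of 0.06 with 5 below 0. Without that library the medians were 0.07 with 1 below 0 for initiation factors, 0.15 with 1 for assembly factors, 0.06 with 8 for RNA polymerase I and 0.01 with 6 for TOP message control. In each of these lists 0 genes passed in limma, without or with the block.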

How the data were processed

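Gene expression was measured by RNA-seq of total RNA in 6 libraries, grouped and numbered from the sample titles. The submitters' processing notes name build GRCm39, HISAT2 2.2.1 with StringTie 2.1.7, Trimmomatic 0.39 and FastQC 0.11.9. Their order and settings, the annotation and the strand of counting are not stated in these sources. Per the file headers, the table gives for each gene and library a normalized count (a signal), and the deposited values are whole reads over 1 factor per library. The deposited DESeq2 columns are a log2 fold change and its standard error, a statistic (score), and a raw and an adjusted p-value. Of 20745 rows, 80 repeats were dropped. Whole reads were recovered for 100% of values within 0.001 reads, and library totals of 45178137 to 59904715 set the depth.

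The 16141 genes that reached 10 normalized counts in 3 or more libraries were tested in R 4.3.3 with limma 3.58.1 (lmFit, then trended eBayes) on log2(normalized count + 1), 2-sided, without a block, with a threshold of 0.05 after Benjamini-Hochberg adjustment; fold changes on this scale understate low genes. Recovered reads were tested with edgeR 4.0.16 and DESeq2 1.42.0. The tests were checked on simulated data. Over 13054 genes, same-numbered libraries' departures from their group mean correlated at 0.64, 0.47 and 0.57, and other pairings at 0.01 or less, so the numbers, which come from the titles, were taken to pair the libraries. Copies were found with blastn on GENCODE M21 transcripts (GRCm38), lengths came from the same release and gene starts from RefSeq; no coordinate was converted between builds. Sums over copies can count a read more than once.

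The genes and lists were chosen with earlier results of these data known. Named genes are the 5 lowest and 5 highest fold changes, the most and least abundant of each subunit, the paralog pairs, the stalk, Rpl5, Rpl11, Rps6, Rpsa, Rps19, Rps14, any that passed, did not overlap or moved 1 way in 3 pairs, and Fau, Rps27a and Rps3a1, and 1 further gene of that rule is not reported here. Rpl17, Rps20 and Rpl41 and the copies were named after their values were seen, and so was Rack1. Alternatives were other pseudocounts, filters and scalings, the block, other tools, added pseudogenes or copies (the copies chosen after seeing the data) and leaving out each library.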

Additional observations from a re-analysis of the deposited data

How the results depend on the processing

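The count of 0 genes past the threshold held under all 16 other settings that kept every library. The fit with the replicate block without both libraries of replicate 1 called 2 genes, Rps29 and Rpl17 (0.223% of all genes), and the other fits without a library called 0, a range of 0 to 2. For the replicate number, DESeq2 with the replicate block called 2 genes, against 0 in limma and in edgeR with it. In limma, pairing changed the call of 1 named gene, Rps27a (adjusted p 0.0227 with the replicate block and 0.9998 without it).

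Without a library or pair, the median log2 fold change of the 80 genes ranged from -0.22 to 0.026, of the small subunit from -0.21 to 0.042 and of the large from -0.22 to 0.024, and the share difference from -0.661 to 0.0911 percentage points; the values above 0 came without non-irradiated replicate 2 or without pair 2. Adding listed pseudogenes turned Rps13 (-0.051) and Rpl7a (-0.014) below 0, and adding copies, with or without the replicate block, turned Rps13 (-0.052), Rpl30 (-0.041) and Rpl7a (-0.10); reads were only added. Over the fits without a library, 30 of 37 named genes changed sign, with log2 fold changes in these ranges: Fau -0.25 to 0.039, Rack1 -0.15 to 0.066, Rpl10a -0.10 to 0.062, Rpl11 -0.20 to 0.064, Rpl13a -0.19 to 0.050, Rpl22 -0.26 to 0.024, Rpl22l1 -0.12 to 0.10, Rpl30 -0.12 to 0.22, Rpl36 -0.29 to 0.029, Rpl36a -0.28 to 0.022, Rpl36al -0.22 to 0.11, Rpl38 -0.40 to 0.0020, Rpl39l -1.40 to 0.26, Rpl4 -0.12 to 0.040, Rpl5 -0.13 to 0.071, Rpl7 -0.15 to 0.051, Rpl7a -0.28 to 0.53, Rpl7l1 -0.044 to 0.20, Rplp0 -0.16 to 0.0058, Rplp1 -0.33 to 0.012, Rplp2 -0.35 to 0.013, Rps13 -0.069 to 0.21, Rps14 -0.28 to 0.0089, Rps2 -0.13 to 0.090, Rps27 -0.48 to 0.19, Rps27l -0.17 to 0.098, Rps3 -0.16 to 0.074, Rps3a1 -0.17 to 0.047, Rps6 -0.13 to 0.040, Rpsa -0.18 to 0.062. These ranges limit any statement on direction for 1 gene. The other 7 kept their sign, with Rps29 at -0.58 to -0.10, Rps28 -0.47 to -0.059, Rpl21 -0.36 to -0.15, Rpl39 -0.35 to -0.059, Rps12 -0.32 to -0.066, Rps19 -0.30 to -0.0028 and Rps27a -0.90 to -0.70. With 3 libraries a group, a p that misses the threshold does not show that levels were alike. A copy of Rpl21 overlaps another, so that their sum may count reads more than once.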
